A study of Mus musculus with 41 samples.

Results

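In CUT&RUN (CNR), an antibody guides a nuclease to a chromatin protein, and the short DNA fragments it cuts loose are sequenced to place the protein on the genome. The regions described here were all SOX9 CNR peaks deposited for D0, the time point before the *Sox9* transgene was switched on. They were 770 that lay on MLL3/4 peaks of the same time point and 22 that did not, out of 328085 peaks in 18 lists of the series. They were chosen from the D0 SOX9 signal itself, because the authors kept peaks whose maximum exceeded 1800 RPKM (reads per kb, corrected for library size), so that D0 signal is given below as a description. Each region was then followed through every other list by an overlap of at least 1 bp.

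Epidermal stem cells (EpdSCs) were sorted from the back skin of male CD1 mice of genotype K14rtTA; TRE-myc-Sox9, in which a *Krt14* promoter drives rtTA in the epidermis and rtTA with doxycycline (DOX) induces MYC-tagged SOX9. The sort kept cells negative for CD31, CD45, CD117, CD140a and CD34 and high for CD49f and Ly6A. Mice were aged P21 at D0, P28 after 1 week of DOX (W1), P35 at W2 and P63 at W6. The W12 cells came from newborn skin of this genotype grafted onto female immunocompromised Nude hosts, so that grafting cannot be told apart from time at W12. MLL3/4 CNR covered D0, W1 and W2. In culture, keratinocytes grown from EpdSCs of newborn male pups carried lentiviral DOX-inducible SOX9. It was either wild type (WT-SOX9), without the transactivation domain (dTA) or without the DNA-binding HMG domain (dHMG). The authors give the genotype of the transduced EpdSCs as *Krt14-rtTA*. Those cells were given MYC-tag and MLL3/4 CNR with DOX at 1 µg/ml, and WT-SOX9 also without DOX. Antibodies against SOX9 and the MYC tag were diluted 1 in 250 and that against MLL3/4 1 in 50. The MYC-tag list without DOX serves here as a control for signal that needs no induced SOX9.

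Each group used here had 2 samples that the authors pooled into 1 list. No spread between replicates and no test between groups could therefore be had, and each share is given with a 95% Wilson interval over peaks, which covers counting error only. For the MLL3/4 list of WT-SOX9 with DOX, the descriptions of its 2 samples name replicate 2 each time, and the libraries it was made from are therefore uncertain. The D0 maxima rose in steps of 30.7 RPKM, and a step was taken as 1 fragment, which could not be checked. By that reckoning the lowest D0 peak, at 1814 RPKM, rested on 59 fragments and the median peak, at 2213 RPKM, on 72. In the later SOX9 lists a step was 42.0 to 76.4 RPKM, and 24 to 43 steps were enough for the lowest peak. D0 MLL3/4 peaks reached, with at least 1 base, within 1 kb of the starts of 5 of 6 EpdSC markers, 2 of 6 hair follicle stem cell markers (*Nfatc1* and *Sox9*), 2 of 4 melanocyte or mast cell markers (*Mitf* and *Dct*) and 0 of 10 immune, endothelial or fibroblast markers. By the same rule D0 SOX9 peaks were at the starts of 3 EpdSC markers, *Krt5*, *Krt14* and *Col17a1*, and of 0 markers of the other lists. Whether other cell types had a part in the D0 list was not tested.

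SOX9 is a transcription factor with an HMG box that bends DNA at short words ending in TTGT, and it specifies hair follicle stem cells, whereas interfollicular EpdSCs normally make little of it. AP1 factors, dimers of JUN and FOS proteins that bind TGACTCA, occupy many enhancers of the epidermis. MLL3 and MLL4 are methyltransferases of histone H3 lysine 4 that work at enhancers.

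Of the 22 D0 peaks outside every D0 MLL3/4 peak, 12 carried a pair of short SOX words facing each other at the maximum and 10 did not. The sequences of 11 of the 12 are shown, because the later heights of peaks with and without this pair are compared below. The other one, near *Slc18a1*, is not printed. Capitals mark ACAA and the facing TTGT. Each line gives the gene with the nearest start and mm10 (GRCm38) coordinates, plus strand, and the bases are from the RefSeq genome of that build.
Sgk1, chr10:21839515-21839548: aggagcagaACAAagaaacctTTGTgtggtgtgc
Nedd9, chr13:41331210-41331244: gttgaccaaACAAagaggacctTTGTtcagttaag
Slc39a11, chr11:113232180-113232214: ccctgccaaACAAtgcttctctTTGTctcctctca
C1qtnf12, chr4:155972803-155972835: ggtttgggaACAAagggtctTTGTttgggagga
Nrbf2, chr10:67339677-67339711: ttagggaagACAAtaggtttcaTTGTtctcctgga
Nfib, chr4:82283615-82283649: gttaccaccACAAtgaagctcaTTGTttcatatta
Tanc1, chr2:59698528-59698561: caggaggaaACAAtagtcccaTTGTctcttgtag
Rgma, chr7:73033840-73033874: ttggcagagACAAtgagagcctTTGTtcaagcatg
Nhsl1, chr10:18358744-18358777: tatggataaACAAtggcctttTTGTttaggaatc
Runx1, chr16:92998878-92998910: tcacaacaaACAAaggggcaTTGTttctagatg
Vti1a, chr19:55418938-55418971: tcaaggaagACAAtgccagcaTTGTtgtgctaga

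Most D0 peaks looked different, and the word TGACTCA was the commonest of those searched. The next sequences show it at the 3 AP1-bearing D0 peaks of highest total signal, near *Lpp*, *Twsg1* and *Fggy*, and at peaks beside genes of the epidermis and of adhesion. Capitals mark the TGACTCA nearest the maximum, and the strand is the one on which the word reads this way. The *Twsg1* sequence holds the word again at its end, in lower case.
Lpp, chr16:24364374-24364420, minus strand: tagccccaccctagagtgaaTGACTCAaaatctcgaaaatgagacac
Twsg1, chr17:65961625-65961671, minus strand: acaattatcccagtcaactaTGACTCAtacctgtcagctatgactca
Fggy, chr4:95383485-95383531, minus strand: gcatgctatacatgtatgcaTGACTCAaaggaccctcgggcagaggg
Krt5, chr15:101713840-101713886, minus strand: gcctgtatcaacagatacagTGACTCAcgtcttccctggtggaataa
Trp63, chr16:25934439-25934485, plus strand: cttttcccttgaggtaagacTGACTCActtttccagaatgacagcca
Bach1, chr16:87658611-87658657, minus strand: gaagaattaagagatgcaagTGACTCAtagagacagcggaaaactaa
Fosl1, chr19:5430030-5430076, minus strand: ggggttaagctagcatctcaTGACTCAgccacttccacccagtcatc
Itgb1, chr8:128666971-128667017, minus strand: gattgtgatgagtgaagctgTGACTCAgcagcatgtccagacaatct
Egfr, chr11:16830730-16830776, plus strand: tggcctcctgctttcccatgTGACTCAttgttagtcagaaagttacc
Dkk3, chr7:112202348-112202394, minus strand: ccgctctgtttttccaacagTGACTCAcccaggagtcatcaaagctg
Vcl, chr14:20974039-20974085, plus strand: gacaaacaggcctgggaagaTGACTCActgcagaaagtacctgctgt
Ezr, chr17:6808411-6808457, plus strand: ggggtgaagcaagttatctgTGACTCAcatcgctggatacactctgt

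The first question was whether sites with SOX9 signal before induction carried it afterwards. Of all D0 peaks, 722 (91.2%, 89.0 to 92.9) overlapped a SOX9 peak at W1 and 712 (89.9%, 87.6 to 91.8) did so at W2. The counts were 725 (91.5%, 89.4 to 93.3) at W6 and 635 (80.2%, 77.3 to 82.8) for W12. As the background, the W2 peaks without a D0 overlap were found at W1 in 67.5%, and the 14920 W1 peaks without a D0 overlap were found at W2 in 76.9%, at W6 in 72.2% and at W12 in 33.5%. The D0 peaks moved by 10 kb overlapped these lists in only 3.35 to 7.70%. D0 peaks thus recurred more often than peaks first seen after induction, with the widest gap at W12. When the lists were cut to the length of the W12 list, 9745 peaks, the shares were 81.2% at W1, 78.0% at W2 and 80.2% at W6, so that at equal length the W12 share of 80.2% lay within the range of the others.

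A total of 578 D0 peaks (73.0%, 69.8 to 76.0) were present in all 4 later SOX9 lists, and 774 (97.7%) in at least 1. Of the 722 peaks shared by D0 and W1, 80.1% (77.0 to 82.8) were also seen at W2, W6 and W12, against 30.5% (29.8 to 31.2) of the W1 peaks without a D0 overlap. The commonest incomplete pattern was absence at W12 alone, in 101 peaks (12.8%). The next were presence at W12 alone in 21 and absence from all 4 lists in 18. With every SOX9 list limited to maxima above 3600 RPKM, 60 D0 peaks remained and 63.3% of them were in all 4 later lists.

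**Figure D1:**
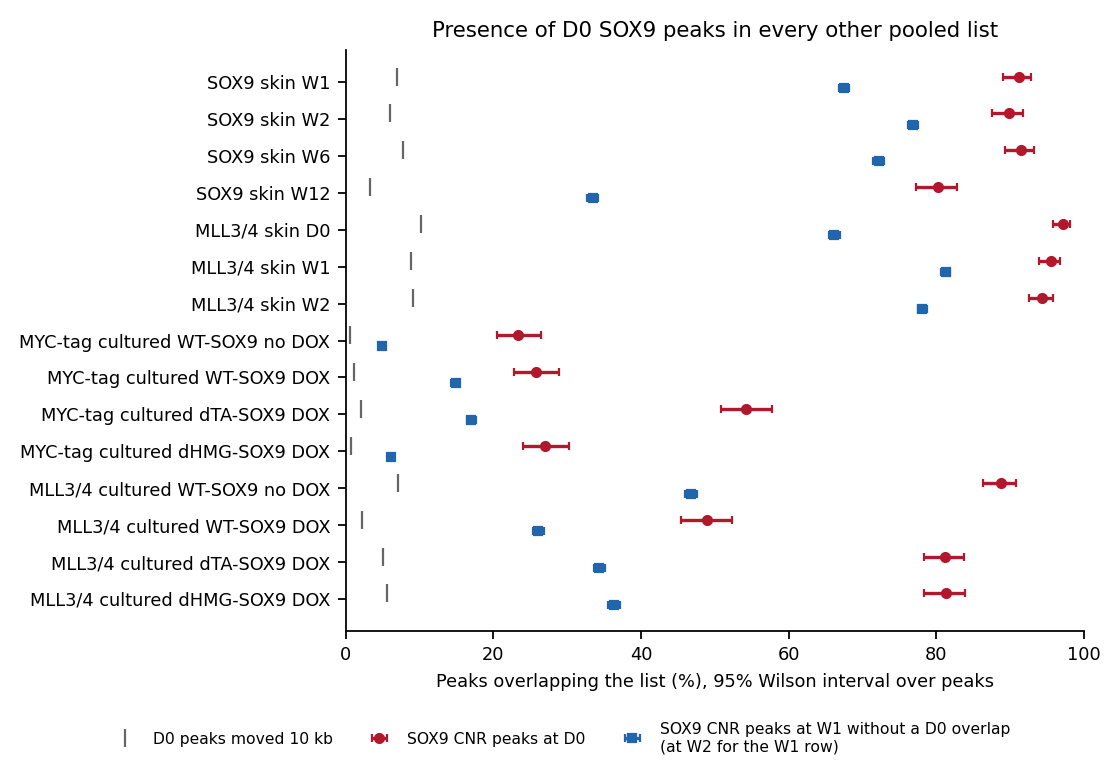
Share of D0 SOX9 peaks (circles) that overlapped each other pooled list, in percent with 95% Wilson intervals over peaks, beside the share of W1 peaks without a D0 overlap (squares, W2 peaks in the W1 row) and of D0 peaks moved by 10 kb (ticks). D0 peaks lie between 80.2 and 97.2% in all skin lists and spread from 23.4 to 88.8% in the lists from culture.

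Most D0 peaks that recurred had a higher maximum after induction, although the 10 of highest total signal at D0 were all lower at W1. Over the peaks present in each list, the median maximum went from 2213 RPKM at D0 to 4120, 5271, 4911 and 3125 RPKM at W1, W2, W6 and W12. The median ratio of a peak's maximum to its own D0 maximum was 1.75 (quartiles 1.37 and 2.28) at W1 and 2.29, 2.13 and 1.32 at the 3 later times. These ratios rest on peaks above 1800 RPKM in both lists, so that peaks not listed later are left out, and the D0 maximum in them is the value that chose the peaks. They are a description and ran from 0.249 to 9.49 at W1. By total signal, the median D0 peak stood at percentile 80.4 of the W1 list, 84.8 of the W2 list, 85.8 of the W6 list and 71.4 of the W12 list. With the W1 peaks cut into 10 equal bins of total signal, 14.3% of the highest bin held a D0 peak, against 1.10% of the lowest bin, and at W2 the shares were 15.3% and 0.702%.

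In the D0 list itself, 214 peaks (27.0%) lay within 10% of the authors' threshold and 60 (7.58%) above 3600 RPKM. The lowest maximum, 1814 RPKM, was shared by several peaks, that beside *Krt5* among them. The first 3 in genome order lay near *Otos*, *2310007B03Rik* and *Slc19a2*. The peak near *Otos* stood at 4091, 3973, 4198 and 3263 RPKM at W1, W2, W6 and W12, and that at the promoter of *Slc19a2*, a thiamine transporter gene, at 6627, 8709, 5751 and 4136 RPKM. The intronic peak of *2310007B03Rik* stood at 2190, 3056 and 3610 RPKM and was not listed at W12. Peaks just outside the threshold are not analysed here, since the list holds none.

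Before induction, D0 SOX9 peaks lay almost wholly on MLL3/4 peaks. In skin, 770 of them (97.2%, 95.8 to 98.2) overlapped an MLL3/4 peak at D0, 757 (95.6%) at W1 and 748 (94.4%) at W2. For W1 SOX9 peaks without a D0 overlap the shares were 66.2% at D0, 81.3% at W1 and 78.1% at W2, and for D0 peaks moved by 10 kb they were 8.90 to 10.2%. The sites were those of strong MLL3/4 signal. With D0 MLL3/4 peaks cut into 10 bins of total signal, 482 of 3708 (13.0%) in the highest bin held a D0 SOX9 peak, against 4 of 3719 (0.108%) in the lowest. The median D0 SOX9 peak sat on an MLL3/4 peak at percentile 93.7 of its list. In cultured keratinocytes, 703 D0 peaks (88.8%) lay on MLL3/4 peaks without DOX, 643 (81.2%) with dTA, 644 (81.3%) with dHMG and 387 (48.9%) with WT-SOX9 and DOX. The shares of W1 peaks without a D0 overlap in these lists were 46.8%, 34.3%, 36.4% and 26.1%. The WT-SOX9 list with DOX was the shortest, and with the others cut to its 10543 peaks they held 69.9% (no DOX), 63.6% (dTA) and 65.8% (dHMG) of the D0 peaks, still above 48.9%.

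At the maxima of D0 peaks taken as a whole, AP1 words were common and SOX words were little above their background. TGACTCA, read on both strands, stood within 50 bp of the maximum in 360 D0 peaks (45.5%, 42.0 to 48.9), against 2.34% of windows of the same width 1 kb away. The SOX words were CCATTGT, its variant CCTTTGT and the same words with G as their first base, on both strands. They stood in 65 (8.21%, 6.49 to 10.3), against 6.0% of those windows. In windows 2 kb away the shares were 1.20% for AP1 and 4.8% for SOX words. The 60 D0 peaks above 3600 RPKM did not show this contrast, with AP1 in 11 (18.3%) and SOX words in 10 (16.7%). In W1 peaks without a D0 overlap the order was reversed, with AP1 in 15.1% and SOX words in 18.7%. In W2 peaks without a D0 overlap the shares were 14.6% and 15.7%. AP1 was ahead in those of W6, at 22.7% against 19.1%, and of W12, at 28.9% against 25.7%. Among the highest such W1 peaks, taken in the same number as the D0 peaks, AP1 stood in 9.22% and SOX words in 31.7%. In the highest bin of D0 MLL3/4 peaks, AP1 stood within 50 bp of the MLL3/4 maximum in 15.5%. Without the peaks that held a D0 SOX9 peak the share was 13.1%. Both were below the 45.5% of D0 SOX9 peaks, whose windows lay at the SOX9 maximum. Whether the placement of the windows had a part in this gap was not tested. In D0 SOX9 peaks, AP1 words were placed close to the maximum. The nearest word lay at a median of 16.0 bp in the 511 peaks that held one anywhere.

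**Figure D2:**
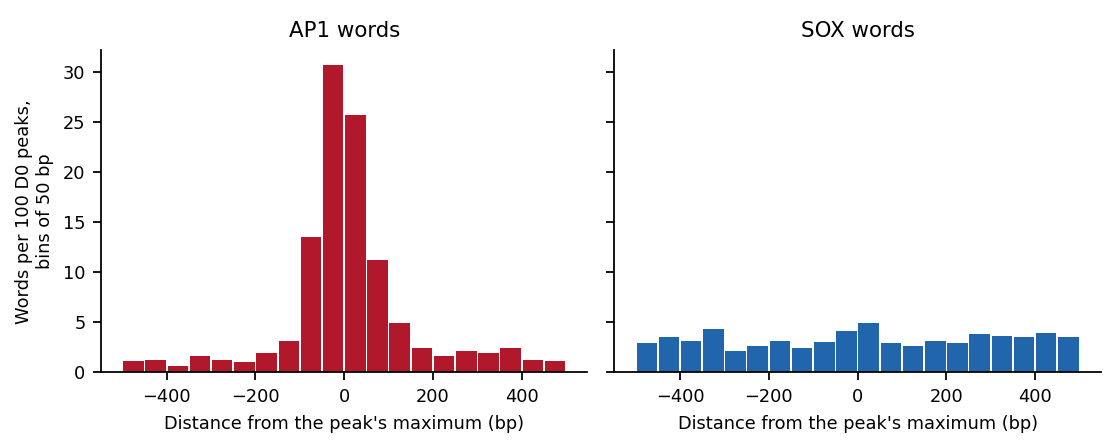
Number of AP1 words (left) and SOX words (right) per 100 D0 peaks in bins of 50 bp around the signal maximum. AP1 words pile up within 100 bp of the maximum, whereas SOX words vary between 17 and 39 words a bin over all D0 peaks, with 33 and 39 in the bins on either side of the maximum.

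Other words were scarcer. NFY words (CCAATCA and CCAATGG), typical of promoters, stood in 5.56% of D0 peaks against 1.83% in windows 1 kb away, and KLF words (GGGTGTG) in 4.55% against 2.59%. TEAD words (GGAATG) reached 6.69% against 5.37%. RUNX words (AACCACA) at 1.89% against 3.03% and GATA words (AGATAAC and AGATAAG) at 1.89% against 2.02% were not above their windows. The CTCF word stood in 1 peak and the full TP63 word in 0, which allows a share of up to 0.483%.

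The share of peaks with an AP1 word was lower in bins of higher D0 signal, and in the highest bin it was still above the 2.34% of distant windows. From the lowest to the highest of 5 bins of total D0 signal, the share of peaks with TGACTCA was 58.1%, 50.3%, 46.2%, 40.1% and 32.7%. Peaks with the word recurred widely, 81.7% of them (77.3% at the lower limit) in all 4 later lists. The word was less frequent in the 101 peaks missing at W12 alone (30.7%, 22.5 to 40.3) and stood in 0 of the 18 peaks found in no later list, of which 10 were over exons of *Grhl1*. The peak near *Lpp*, which encodes a LIM protein of focal adhesions, stood at 3197 RPKM at D0 and at 7549, 8786, 6255 and 3401 RPKM at W1, W2, W6 and W12. That near *Fggy* stood at 4119 RPKM at D0 and at 11294, 8327, 8857 and 5285 RPKM later. That near *Twsg1*, a BMP modulator, stood at 4427, 3861, 8327 and 11208 RPKM from D0 to W6 and was not listed at W12.

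A total of 22 D0 peaks lay on no D0 MLL3/4 peak, and SOX words were more frequent among them than among the others. SOX words stood in 10 of the 22 (45.5%, 26.9 to 65.3), against 55 of the 770 others, and AP1 in 4. A wider pair, ACAA followed by the facing TTGT after 7 to 9 bases, stood within 50 bp of the maximum in 12 of the 22 (54.5%, 34.7 to 73.1), in 10 of the 770 peaks on D0 MLL3/4 (1.3%) and in 2 of 44 windows 1 kb from the 22. This spacing was chosen after these sequences had been seen, so its share in D0 peaks is a description. In the 14920 W1 peaks without a D0 overlap, which had no part in that choice, the pair stood in 7.34% against 0.633% of windows 1 kb away. By spacing, it stood there in 0.409% at 6 bases, 1.82% at 7, 3.63% at 8, 1.92% at 9 and 0.536% at 10, with 0.191% in the distant windows at 8. In D0 MLL3/4 peaks it stood in 0.494%, against 0.616% in distant windows. In D0 peaks the middle of the pair lay at a median of 10.8 bp from the maximum.

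**Figure D3:**
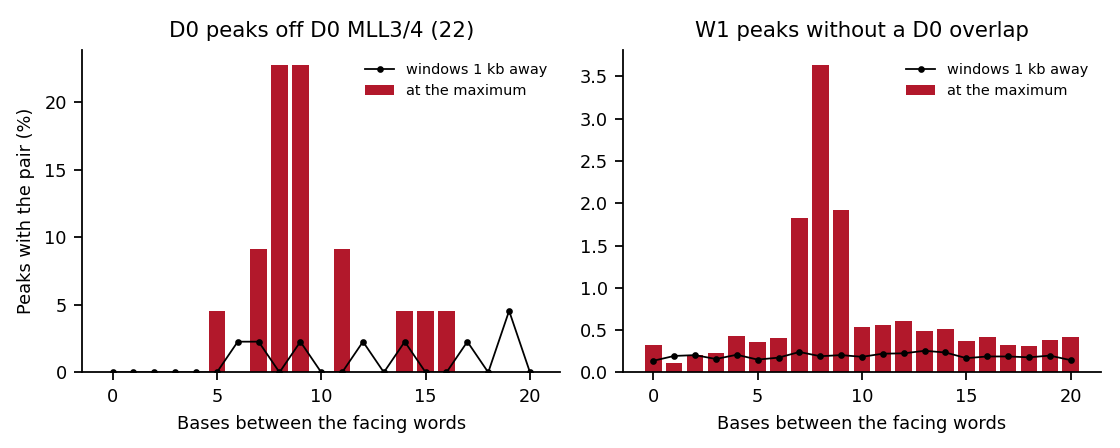
Share of peaks, in percent, with ACAA and a facing TTGT within 50 bp of the maximum (bars) by the number of bases between them, beside windows 1 kb away (line), for the 22 D0 peaks off D0 MLL3/4 (left) and the 14920 W1 peaks without a D0 overlap (right). The W1 peaks show a single rise at 7 to 9 bases with its top, 3.63%, at 8.

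Altogether 22 D0 peaks had the pair, the 12 off and the 10 on D0 MLL3/4, and their later heights stood above those of the other D0 peaks. All 22 were in all 4 later SOX9 lists and all 22 lay on MLL3/4 peaks at W1 and W2, where 10 did so at D0. The low D0 count is partly built in, since the pair was found among peaks off D0 MLL3/4. Their median ratio to the D0 maximum was 5.34 (quartiles 4.20 and 5.90) at W1 and 7.19, 5.02 and 3.47 at the later times, against 1.72, 2.24, 2.10 and 1.3 for the other 770 peaks. In culture, 17 of the 22 (77.3%, 56.6 to 89.9) were in the MYC-tag list of WT-SOX9 with DOX, 6 (27.3%, 13.2 to 48.2) in that of dTA, 0 in that of dHMG and 0 without DOX. At equal length, 2242 peaks per list, the counts were 8, 0, 0 and 0. The other 770 peaks showed another order, with 24.3% in WT-SOX9 with DOX, 55.1% in dTA, 27.8% in dHMG and 24.0% without DOX. At equal length these shares were 11.7%, 22.9%, 23.6% and 24.0%, so that the dTA list no longer led. The 1095 W1 peaks with the pair but without a D0 overlap were in the MYC-tag lists in 34.7% (WT-SOX9), 11.1% (dTA), 0.731% (dHMG) and 0.913% (no DOX), against 13.3%, 17.5%, 6.51% and 5.29% of W1 peaks without the pair. In skin, the W1 peaks with the pair were seen at W12 in 54.7% against 31.8% without it, but at W2 in 75.7% against 77.0%. They lay on MLL3/4 peaks less often than those without it, in 24.2% against 69.5% at D0, 60.5% against 82.9% at W1 and 56.2% against 79.9% at W2. The presence of all 22 D0 peaks on MLL3/4 at W1 and W2 was thus not matched by the W1 peaks with the pair.

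**Figure D4:**
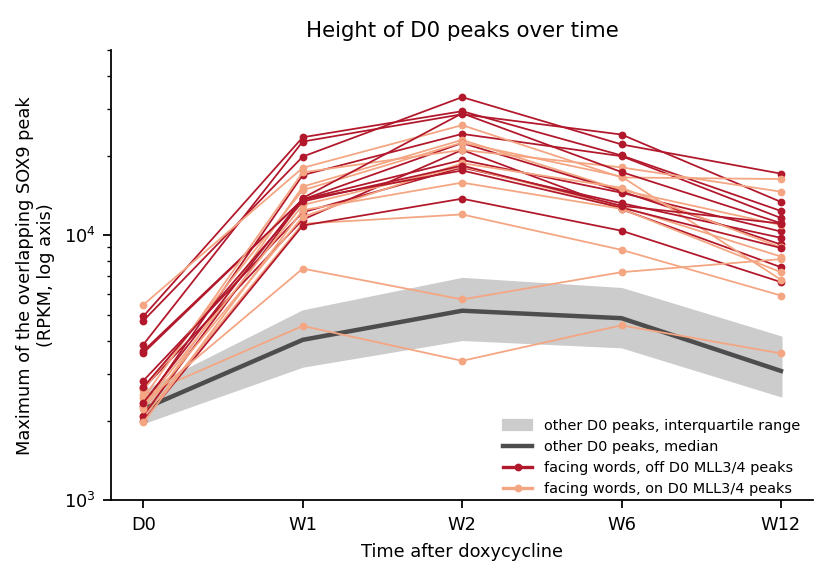
Maximum of the overlapping SOX9 peak in RPKM (log axis) at D0, W1, W2, W6 and W12 for each of the 22 D0 peaks with the facing pair (lines, dark where off D0 MLL3/4), beside the median and quartiles of the other D0 peaks (grey). At W1 the lines with the pair, apart from those at *Ankrd55* and *Wwtr1*, stand between 10891 and 23453 RPKM, whereas the median of all D0 peaks was 4120 RPKM.

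Single loci show the course. The peak near *Sgk1*, a serum- and glucocorticoid-induced kinase gene, stood at 4949 RPKM at D0 and at 23453, 29413, 20023 and 12363 RPKM at W1, W2, W6 and W12. It had no MLL3/4 peak at D0 and MLL3/4 maxima of 25 and 16 at W1 and W2, in unscaled coverage, which cannot be compared between lists. The intronic peak of *Nedd9*, a scaffold of focal adhesions, stood at 3873 RPKM and then at 22588, 28649, 24011 and 13374 RPKM, with no MLL3/4 peak at D0 and maxima of 29 and 26 at W1 and W2. Both peaks were among the highest of those off MLL3/4 at D0.

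The peak whose nearest coding start is *Slc39a11* lay 444 kb downstream of endogenous *Sox9* and was the D0 peak nearest to it. It stood at 4765 RPKM at D0 and at 19822, 33233, 22038 and 17096 RPKM later, with MLL3/4 maxima of 12 and 13 at W1 and W2 and none at D0. The peak 6230 bp outside *Nfib*, a factor of hair follicle stem cells, stood at 2828 RPKM at D0 and at 12216, 18030, 13223 and 9789 RPKM later. The peak nearest *Runx1*, 172711 bp from its start, stood at 2090 RPKM and then at 13657, 22308, 14650 and 9238 RPKM. At W1 each of these peaks exceeded the upper quartile of all D0 peaks, 5417 RPKM. Not every peak with the pair behaved so: that at the promoter of *Ankrd55* stood at 2490 RPKM at D0 and at 4552, 3361 and 3585 RPKM at W1, W2 and W12, and that within *Wwtr1* at 2336, 7491, 5730 and 8135 RPKM. Neither of them was in the MYC-tag list of WT-SOX9 with DOX, and both were on MLL3/4 peaks at D0. These traits were not particular to them. The pair peak nearest *Adgrl2* had both and stood at 14809 RPKM at W1. That nearest *Rgma* was also missing from the WT-SOX9 list and stood at 13830 RPKM.

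Part of the D0 list was also found where no induced SOX9 was present. In the MYC-tag list without DOX, 185 D0 peaks (23.4%, 20.5 to 26.4) had an overlapping peak, against 4.97% of W1 peaks without a D0 overlap and 0.631% of D0 peaks moved by 10 kb. With DOX the counts were 204 (25.8%) for WT-SOX9, 430 (54.3%) for dTA and 214 (27.0%) for dHMG, where the W1 peaks stood at 14.9%, 17.0% and 6.09%. Every MYC-tag list was also cut to the 2242 peaks of the list without DOX. The shares were then 12.4% for WT-SOX9, 22.2% for dTA, 23.0% for dHMG and 23.4% without DOX. At this length dTA no longer led but stayed above WT-SOX9. Without the 185 shared peaks the recurrence of D0 peaks was much the same (93.1%, 91.4%, 93.4% and 77.1% in time order), and AP1 words stood in 50.9%. The list of replicate 1 alone without DOX, which has no limit at 1800 RPKM, held 40.5% of the D0 peaks.

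The peaks shared with the list without DOX differed from the rest. Promoters, within 1 kb of any annotated start, noncoding genes included, made up 37.3% (30.7 to 44.5) of the 185, against 17.1% (14.3 to 20.3) of the other 607. AP1 words stood in 27.6% (21.6 to 34.4) and NFY words in 10.3%, against 50.9% and 4.12%. All 15 D0 peaks above 10000 RPKM were among the 185. So were the 10 of highest total signal.

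These 10 lay at few places, several of them repeats. The highest, at *Gm10800* (chr2:98666176-98667334), stood at 225029 RPKM at D0 and at 97730, 105046, 62504 and 256631 RPKM at W1, W2, W6 and W12, and its window was soft-masked as repeat throughout. Peaks at the neighbouring *Gm10801*, in *Gm33838* on chromosome 9, in *Chl1* and near *Pak3* stood at 94131, 149313, 71290 and 58624 RPKM at D0. Each of these was lower at W1, between 26161 and 37225 RPKM, and stood again between 58183 and 144171 RPKM at W12. The others lay at *Gm26917* and *CT010467.1* on chromosome 17, between *Gm10801* and *Gm10800*, at *Gm21738* and near *Ly6c2*. A run of 16 D0 peaks spanned the first 38.3 kb of assembled chromosome 9 (chr9:3000001-3038300). All 16 were in the list without DOX, 15 at W12 and 4 in all later SOX9 lists, and 0 held an AP1 or SOX word. The SOX-word peak in *Camk1d* stood at 10729 RPKM at D0 and at 11006, 20474, 17211 and 17188 RPKM later, and it too was in the list without DOX. Of the 21 D0 peaks whose only later list was W12, 18 were in the list without DOX. Whether repeat copy number or mapping had a part in these values was not tested.

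A different group of peaks was seen only at D0. Of the 18 D0 peaks in no later SOX9 list, 10 lay over *Grhl1* (chr12:24572283-24617391, plus strand), a Grainyhead-like transcription factor gene of the epidermis. All 10 had their maximum in an exon and held coding bases, and exons covered a median of 91.5% of their length. Their D0 maxima ran from 1967 to 6794 RPKM. The highest, over an exon at chr12:24581322-24581722, ranked 14 of all D0 peaks by total signal. Nearly all the length of the narrowest of them, 85 bp, was exon (90.6%).

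The same exons carried MLL3/4 signal at D0. Of 18 exon blocks of *Grhl1*, 10 held a D0 SOX9 peak and 9 a D0 MLL3/4 peak, whereas at W1 3 held an MLL3/4 peak and 0 a SOX9 peak, and at W2 the counts were 0 and 1. Of the 10 exonic D0 peaks, 8 lay on a D0 MLL3/4 peak. An 11th D0 peak in the same gene lay in an intron (chr12:24592027-24593870) and differed, at 2644 RPKM at D0 and 10026 RPKM at W1, with peaks in all later SOX9 lists. The MYC-tag list without DOX held 0 peaks over the gene. Among genes with D0 peaks that were at least 50% exon, *Grhl1* had 9 and *Gm10717* came next with 3. Both D0 antibodies thus shared peaks that followed the exons of 1 gene. Whether these peaks stand for proteins on chromatin or for DNA made from a spliced transcript, such as cDNA or a plasmid, was not tested, and their RPKM values are to be read with that limit.

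**Figure D5:**
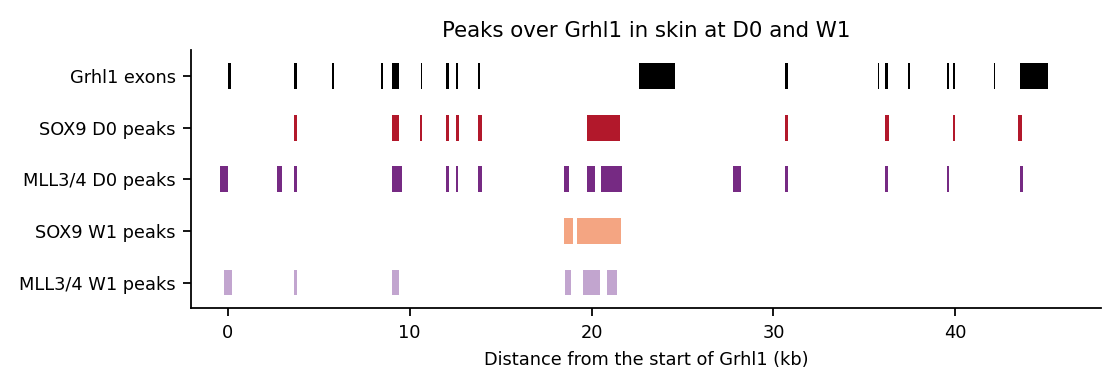
Exons of *Grhl1* (black) and peaks of SOX9 and MLL3/4 CNR in skin at D0 and W1, by distance in kb from the start of the gene. At D0 both antibodies gave narrow peaks over exons, 10 and 9 of the 18 exon blocks, and at W1 the exon blocks with a peak number 0 for SOX9 and 3 for MLL3/4.

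The remaining 8 peaks of D0 alone lay near *Nsf*, *Gdi2*, *Fbxw4*, *Polr3k*, *Slc9b1*, *Cav2*, *Klhdc10* and *Gm11168*, with maxima of 1875 to 3197 RPKM. Among peaks missing at W1, that in the first part of *Aida* stood at 3382 RPKM at D0, 3514 at W2 and 2528 at W12 and was not listed at W6. That near *Vmn1r238* stood at 3351 RPKM at D0 and 2390 at W12 and was listed at no time between. The 101 peaks missing at W12 alone were at promoters in 33.7% (25.2 to 43.3), and 100 of them lay on D0 MLL3/4 peaks. The peak at the promoter of *Cish*, a feedback inhibitor of cytokine signalling, was one of them, at 2705, 3746, 7487 and 3820 RPKM from D0 to W6. Another lay near *Dsg1c*, a desmoglein gene, at 2090, 5474, 3132 and 2938 RPKM.

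By position, 173 D0 peaks (21.8%, 19.1 to 24.9) were at promoters, 25 (3.16%) in exons, 303 (38.3%) in introns and 291 (36.7%) between genes. The promoter share was 21.8% also in W1 peaks without a D0 overlap, 12.2% in W12 peaks without one and 26.4% in D0 MLL3/4 peaks. Peaks joined across gaps of up to 50 kb formed 637 loci, and 540 D0 peaks stood alone. Of the 27 loci with at least 3 peaks, the largest were the start of chromosome 9 with 16 and *Grhl1* with 11. Next, *Klf6*, an early-response zinc finger factor, and *Col17a1*, the hemidesmosomal collagen XVII, had 5 each, and *Cdh1* (E-cadherin), *Dusp7* (a MAP kinase phosphatase), *Nsmce2*, *Sfn* with *Zdhhc18*, a histone cluster at *Hist1h2bm* and *Gm10801* with *Gm10800* had 4 each.

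Genes of the basal epidermis often had a D0 peak in the gene or within 50 kb of it. Over all protein-coding genes the share was 1321 of 21911, 6.03%. Of the listed genes it was 10 of 20 (50.0%, 29.9 to 70.1) for basal keratins, integrins and basement membrane, 10 of 20 (50.0%) for desmosomes and adherens junctions, 12 of 24 (50.0%) for actin cytoskeleton and focal adhesions, 10 of 24 (41.7%) for wound and stress response, 9 of 22 (40.9%) for terminal differentiation, 9 of 26 (34.6%) for basal transcription factors and 5 of 16 (31.2%) for AP1 and ATF factors. For EGF receptor signalling it was 4 of 22, for epithelial-mesenchymal transition 3 of 17, for Notch 2 of 16 and for hair follicle stem cell genes 3 of 24 (12.5%, 4.34 to 31.0). The order of the lists depended on the distance rule and no difference between them was tested. Within 10 kb the share was 16.7% for wound and stress response, 12.5% for AP1 and ATF factors, 22.7% for terminal differentiation and 5.88% for epithelial-mesenchymal transition, against 18.2% for EGF receptor signalling. By nearest start it was 20.8% for wound and stress response, 18.8% for AP1 and ATF factors and 18.2% for both terminal differentiation and EGF receptor signalling. These lists were not a random draw of genes: D0 MLL3/4 peaks lay beside 70.6 to 100% of each, against 71.7% of all genes, and neighbours share peaks, as *Krt14*, *Krt16* and *Krt17* do.

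Among structural genes, the promoter peak of *Krt14*, a keratin of basal cells whose promoter also drives rtTA here, stood at 3535 RPKM at D0 and at 4898, 8175, 5751 and 5009 RPKM later. Whether transgene copies of that promoter had a part in this value was not tested. The peak beside its partner *Krt5*, with its maximum 1009 bp from the start, stood at 1814 RPKM and then at 2593, 5577, 3862 and 1930 RPKM. That beside *Itgb1*, the beta1 integrin, stood at 2244 RPKM and then at 4552, 4889, 4911 and 3355 RPKM. In each of the 3, W2 or W6 was the highest and W12 was lower than W6.

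Peaks of junction genes reached their highest value at different times. The peak near *Dsc3*, a desmosomal cadherin, stood at 3812 RPKM at D0 and at 8701, 7411, 8395 and 4688 RPKM later, and that at the promoter of *Jup*, plakoglobin, at 3474 and then 5935, 6876, 7010 and 3079 RPKM. The peaks of highest total signal near *Cdh1* and *Dsp*, desmoplakin, stood at 2367 and 2890 RPKM at D0 and were listed up to W6 only. The peak in *Afdn*, afadin, stood at 1967 RPKM at D0 and at 13311, 13064, 10242 and 5331 RPKM later, so that *Dsc3*, *Cdh1* and *Afdn* were highest at W1 and *Jup* at W6. Among focal adhesion genes, those in *Actn4* and *Vcl* (vinculin) stood at 2152 and 3689 RPKM at D0 and at 3688 and 4552 RPKM at W1.

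Among transcription factor genes, the peak 38347 bp from the start of *Gata3* stood at 2152 RPKM at D0 and at 10488, 12147, 8144 and 6756 RPKM later, and it was in the MYC-tag list without DOX. That beyond the end of *Trp63*, the p63 gene, 42048 bp away, stood at 2890 RPKM and then at 4725, 4584, 5499 and 2758 RPKM. BACH1 and JUN both bind AP1-like words. Beside *Bach1* the values were 1844 RPKM and then 3630, 4966, 5835 and 2895 RPKM, and at the *Jun* promoter 2736 and then 3746, 5348, 4911 and 2666 RPKM. The peak near *Fosl1*, at 1967 RPKM, and that in *Zfp750*, at 2398 RPKM, were not listed at W12. Most of these factor genes thus kept a peak throughout, with *Gata3* the highest of those named at W1.

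In the other lists, the peak within *Egfr*, 47396 bp from its nearest coding start, stood at 3228 RPKM at D0 and at 4034, 6341, 7598 and 4136 RPKM later, and the promoter peak of *Hes1*, a Notch target, at 3750 RPKM and then 3054, 5806 and 4114 RPKM before it was missing at W12. The promoter peak of *Sfn*, encoding stratifin, stood at 3505 RPKM and then at 4379, 5730, 4827 and 2666 RPKM. Of hair follicle stem cell genes, *Nfib* has been described. A peak 46444 bp from *Nfix*, at the promoter of another gene, stood at 1814 RPKM at D0 and 3803 RPKM at W1. The peak 43069 bp from *Dkk3* stood at 1906 RPKM at D0 and 3227 RPKM at W1. Near *Tgfbr2*, a TGF-beta receptor gene, the values were 2490 RPKM at D0 and 10891 RPKM at W1.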

How the data were processed

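The authors aligned reads to mm10, removed duplicates, kept fragments of at most 120 bp, pooled replicates and called peaks with SEACR (stringent, 0.01). Their processing notes name Bowtie2 2.2.9, SAMtools 1.3.1, Picard and deepTools 3.1.2. The authors gave the maximum of each SOX9 or MYC-tag peak in RPKM, scaled to the library. The pooled SOX9 and MYC-tag lists held maxima above 1800 RPKM. In the pooled MLL3/4 lists the deposited signal was unscaled coverage, so peaks were ranked within a list and maxima were not compared between lists. The total signal of a peak is a deposited score, the sum of signal over its bases. Of 41 samples, those for JUN, ARID1a and BRG1 were not analysed here.

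Overlaps, words and distances were computed with Python 3.11.15, pandas 2.3.3, NumPy 2.4.6, SciPy 1.17.1 (Wilson intervals) and matplotlib 3.10.9, and tested on simulated data. Genes were from GENCODE vM21 and coordinates count from 1. Words were counted in 101 bp at the maximum, against windows 1 kb to each side, and the local background moved peaks by 10 kb to each side. Neighbouring peaks are not independent. Named peaks were the 10 of highest total signal and the 3 highest of each class described. Of the peaks tied at the lowest maximum, the first 3 in genome order were named. Added to these were peaks nearest *Krt5*, *Krt14*, *Gata3* and other fixed genes, and up to 4 genes per gene list in order of signal. Other genes, the facing-pair peaks among them, were named after their values were seen. The peaks and gene lists were chosen with earlier results of these data known. Alternatives were a 50% overlap, stronger peaks, lists of equal size, other windows and promoter widths, and, added after seeing the data, leaving out peaks shared with the MYC-tag list without DOX and the facing pair with its spacing.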

Additional observations from a re-analysis of the deposited data

How the results depend on the processing

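With 1 pooled list per group, neither replicate spread nor a test was available. Depth is known only through the RPKM step taken as 1 fragment, and peaks below the threshold cannot be told from absent ones. No paired analysis was possible because the replicates were pooled before peak calling. Of 191 alternative values for 40 results, 109 stayed within the interval of the value above and 82 moved, and the cause was not tested.

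For the D0 peaks above 3600 RPKM, of which most are shared with the list without DOX, recurrence was 80%, 76.7%, 78.3% and 86.7% in time order. Their overlap with skin MLL3/4 was 93.3%, 91.7% and 88.3% at D0, W1 and W2. In MYC-tag lists it was 60.0% without DOX, 76.7% with WT-SOX9, 71.7% with dTA and 63.3% with dHMG. On cultured MLL3/4 it was 85.0% without DOX, 73.3% with WT-SOX9 and 85.0% with dHMG. AP1 words stood in 18.3% and SOX words in 16.7%, the facing pair in 8.33%, and in 4 of 4 (100%, 51.0 to 100) of those off D0 MLL3/4. Their median percentiles were 86.3 at W1, 96.6 at W2, 95.5 at W6, 97.1 at W12 and 98.8 for D0 MLL3/4. With every SOX9 list above 3600 RPKM, recurrence was 70.0%, 76.7% and 71.7% at W1, W2 and W6, and 63.3% in all 4.

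For the 50% of D0 peaks with the highest total signal, recurrence was 95.2%, 94.4% and 93.7% at W1, W2 and W6 and 79.5% in all 4. MLL3/4 shares in skin were 98.7%, 98.2% and 97.2%, MYC-tag shares 29.3%, 30.6%, 66.2% and 35.1% (no DOX, WT-SOX9, dTA, dHMG), and cultured MLL3/4 shares 62.4%, 86.9% and 86.9% (WT-SOX9, dTA, dHMG). With lists of equal size, recurrence was 81.2%, 78.0% and 80.2%, and 62.1% in all 4. MYC-tag shares were then 12.4%, 22.2% and 23.0%, and cultured MLL3/4 shares 69.9%, 63.6% and 65.8% (no DOX, dTA, dHMG).

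Without replicate 2, the MYC-tag share without DOX was 40.5% and the cultured MLL3/4 share without DOX 89.8%. The MYC-tag list of replicate 1 also lacks the limit of 1800 RPKM (6707 peaks, lowest maximum 790.9 RPKM), so the 2 changes cannot be told apart. Without D0 peaks in the MYC-tag list lacking DOX, recurrence was 93.1%, 93.4% and 77.1% at W1, W6 and W12. MYC-tag shares were 18%, 48.6% and 18.3%, and cultured MLL3/4 shares 86.0%, 42.0%, 76.8% and 76.8%. Promoters then made up 17.1%, AP1 words 50.9% and all coding genes with a D0 peak 4.45%. Promoters of 2.5 kb gave 31.1% and coding starts alone 16.9%. In windows of 100 bp to each side AP1 stood in 57.3% and SOX words in 13.6%, and outside promoters AP1 stood in 50.2%. Within 10 kb 2.66% of coding genes had a D0 peak, and by nearest start 2.90%. A spacing of exactly 8 bases stood in 1.14% of D0 peaks and 22.7% of those off D0 MLL3/4.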
